A study of Mus musculus with 25 samples.

Results

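Oxidative phosphorylation genes encode the subunits and assembly factors of the respiratory chain and the ATP synthase, and they lie on both the nuclear and the mitochondrial genome. Rows of the count table were taken whose gene symbol begins with Nduf, Sdha to Sdhd, Uqcr, Cox4 to Cox8, Atp5, mt-Nd, mt-Co, mt-Cytb or mt-Atp. Of 48440 genes in the table, 121 carried such a name. The members were then selected on their measured level: 7 names with -ps and 14 genes with a mean under 10 CPM (counts per 1000000 counts of the library) over all 25 libraries were dropped, which left 100 members, 93 nuclear and 7 mitochondrial. Among the nuclear members just inside that limit, *Atp5s* averaged 14.1 CPM, *Sdhaf3* 15.9 and *Ndufaf5* 17.2, and just outside it *Ndufs6b* averaged 6.10 CPM, *Cox4i2* 5.63 and *Cox7b2* 1.52.

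The libraries came from E14IVtg2a (E14), a line of mouse ES cells that needs no feeder layer and was kept with serum and LIF. Of these, 10 were unedited wild-type E14 cells kept for 48 h in 0, 2.5, 5, 7.5 or 10 µM CHIR99021, an inhibitor of GSK3 that stabilizes β-catenin, with 2 libraries per dose. The other 15 were clones of E14 cells without CHIR99021, 1 library per clone, each heterozygous for an amino acid change at codon 37, 41 or 45 of β-catenin (*Ctnnb1*, exon 3), made by exchanging a puroΔTK cassette on 1 allele for the mutant exon. By the mutation effect score (MES), the study's measure in other cells of how far a mutation raises β-catenin signalling, 9 clones were strong (over 20000 units: S37A A10, S37C G12, S37F H2 and G1, S37Y A5, T41A C1 and E6, T41I B9 and A6), 3 were medium (10000 to 20000: S45F C1 and D9, S45P G5) and 3 were weak (under 10000: S45C D3, T41N D3, T41S H8). A clone stands for 1 edited cell, so mutation and clone cannot be told apart where a mutation had 1 clone.

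Respiratory chain complexes I, III and IV pass electrons from NADH to oxygen and pump protons across the inner mitochondrial membrane, complex II feeds in electrons from succinate, and complex V (ATP synthase) lets protons back to make ATP. Complex II is built from nuclear subunits alone, while each of the others also holds subunits made inside the mitochondrion. Mouse ES cells grown in serum use both glycolysis and respiration, and mitochondrial transcripts come from long precursors that cover nearly the whole circular genome, whereas each nuclear gene has its own promoter.

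By role, the nuclear members were 38 subunits of complex I with 8 of its assembly factors, 4 subunits and 4 assembly factors of complex II, 8 subunits of complex III, 14 of complex IV, and 16 of complex V with *Atp5s*. *Ndufa4* and its paralogue *Ndufa4l2* were counted with complex I by their names, although the NDUFA4 protein is now placed in complex IV. Of the 13 mitochondrial protein genes, the 7 members were *mt-Nd1*, *mt-Nd2*, *mt-Nd4*, *mt-Nd5*, *mt-Nd6*, *mt-Cytb* and *mt-Co1*. The other 6 held almost nothing: *mt-Co2*, *mt-Co3* and *mt-Nd3* had 0 counts in the 25 libraries together, and *mt-Atp6*, *mt-Atp8* and *mt-Nd4l* had 1 count each.

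Which mitochondrial genes could be counted went along in part with copies of the mitochondrial genome on chromosome 1. In GENCODE M21 (GRCm38), 7 unprocessed pseudogenes lie on its minus strand from *Gm28439* (24611535 to 24612410) to *Gm29216* (24615706 to 24616197). *Gm28661* equals *mt-Co2*, *Gm10925* equals *mt-Atp6*, *Gm28437* equals *mt-Co3* and *Gm10222* equals *mt-Nd4l* at every base compared, and *Gm28438* differs from *mt-Nd3* at 1 of 345 bases. These copies held few counts themselves, at most 7 in any library. Between 98.0% and 99.9% of the 50-base words of these 5 mitochondrial genes also occur in the copies, against 0% for *mt-Nd1*, *mt-Nd2*, *mt-Nd5*, *mt-Nd6* and *mt-Cytb*, which were all counted. Beyond the 7 copies, 31.9% of the words in the last 300 bases of *mt-Nd2* occur in other annotated transcripts. *mt-Atp8* is an exception, with 0% of its words in a copy and 1 count in all. For *mt-Nd4*, the copy *Gm28439* matches 876 bases and 62.2% of the words are shared, but 0% of those in its last 300 bases, and for *mt-Co1* the share is 28.7% but reaches 100% within its last 300 bases, where a 3′ protocol reads. The last 60 bases of a counted and of an uncounted gene are shown beside their copies, all written 5′ to 3′ in the sense of the mitochondrial gene.
mt-Co1 (chrM:5328-6872, plus strand): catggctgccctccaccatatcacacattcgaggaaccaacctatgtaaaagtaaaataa
Gm29216 (chr1:24615706-24616197, minus strand): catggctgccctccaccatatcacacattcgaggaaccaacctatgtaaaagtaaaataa
mt-Co2 (chrM:7013-7696, plus strand): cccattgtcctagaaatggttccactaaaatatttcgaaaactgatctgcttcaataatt
Gm28661 (chr1:24614885-24615565, minus strand): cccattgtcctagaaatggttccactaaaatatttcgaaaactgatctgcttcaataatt
Within these stretches both pairs are identical, so a read from there cannot be placed on 1 of the 2 loci. Yet *mt-Co1* had 6979 counts in the 25 libraries and *mt-Co2* had 0. Identity at the 3′ end thus does not separate the counted from the uncounted gene. Whether multiply mapping reads were left out of the counts was not stated for these files, and the levels of *mt-Co1* and *mt-Nd2* are uncertain for this reason.

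The promoters of the nuclear members hold motifs of factors known to act on respiratory genes. RefSeq promoters (GRCm38.p6, 250 bases before to 50 after the start) were found for 77 of the 93. The 8-letter core of NRF1, GCATGCGC, stood on either strand in 12 of them (15.6%), in 6.75% of the 8191 promoters of genes tested between strong and weak clones, and in 3.05% of all 27025. The YY1 core AAGATGGC was in 11 (14.3%), against 5.95% and 3.19%. The ETS core CCGGAAGT, the kind that GABP binds, was in 5 (6.49%), against 10.2% and 4.31%. Stretches of 3 promoters are given as examples of each match, with the match in capitals, because these members were among those called between classes of clones below.
Uqcrc1, NRF1 core (chr9:108936650-108936697, plus strand): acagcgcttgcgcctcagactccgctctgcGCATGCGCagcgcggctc
Cox8a, reverse complement of the ETS core (chr19:7217585-7217652, minus strand): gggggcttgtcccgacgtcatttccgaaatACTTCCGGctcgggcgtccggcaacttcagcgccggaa
Ndufc1, YY1 core (chr3:51408906-51408963, minus strand): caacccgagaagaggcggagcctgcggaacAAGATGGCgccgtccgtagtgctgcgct
A match describes letters only and was not tested as a binding site. Of the 24 nuclear members with a promoter that were higher in strong than in weak clones, 5 held the NRF1 core and 3 the YY1 core, and of the other 53 members 7 and 8 did.

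Libraries held 306157 (10 µM replicate 1) to 2083398 counts (5 µM replicate 2), and a gene with 0 counts could lie at up to 9.80 and 1.44 CPM in them (3 counts). The 25 libraries expressed all 10 ES cell markers looked at, and the Wnt targets *Axin2*, *Cdx1* and *Sp5* rose with dose, by 0.26 to 0.30 per µM on the log2 scale (largest adjusted p = 2.48e-06, edgeR). Unedited libraries parted along depth: the 4 with under 1000000 counts (0 µM replicate 2, 2.5 µM replicate 1, 5 µM replicate 1 and 10 µM replicate 1) stood apart from the other 6 in every mitochondrial member.

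The 93 nuclear members together took 2.47% to 3.15% of all counts, and the Wilson 95% interval of the shallowest library ran from 2.98% to 3.10%, for counting error only. The weak clones had the lowest shares, 2.47% (T41S), 2.55% (T41N) and 2.57% (S45C). The medium clones had 2.704% (S45F C1), 2.80% (S45P) and 2.86% (S45F D9), and the strong clones ran from 2.81% through a median of 2.94% to 3.15%. The weak clones lay below all others, and medium and strong clones overlapped. Unedited cells had 2.72% and 3.02% at 0 µM and 2.79% and 3.04% at 10 µM, inside the range of the strong and medium clones. The 4 unedited libraries of low depth had 2.90% to 3.04% and the other 6 had 2.64% to 2.79%, so the nuclear share was also split by depth among unedited cells.

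The 7 mitochondrial members took a smaller and more variable share. It was 0.304% to 0.374% in the 4 unedited libraries of low depth, 0.724% to 1.14% in the other 6, and 1.07% to 1.90% in the 15 clones. At 0 µM the replicates had 0.902% and 0.359%, a gap wider than that between any 2 doses among the deeper libraries. Depth did not split the clones in this way: the 4 clones under 1000000 counts had 1.20% to 1.80%. The plot of shares sets both genomes side by side.

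**Figure D1:**
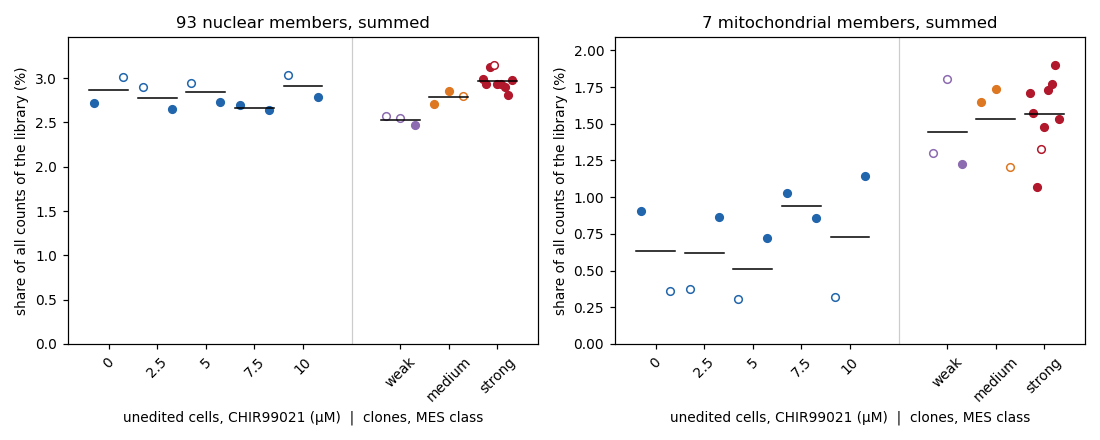
Share of each library's counts (%) on the summed nuclear members (left) and mitochondrial members (right), for unedited cells by CHIR99021 dose and for clones by MES class. Each point is a library, open where it held under 1000000 counts, and lines are group means. The weak clones lie lowest for nuclear members (2.47% to 2.57%), and open and filled blue points separate for mitochondrial ones (0.304% to 0.374% against 0.724% to 1.14%).

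A fit with dose and depth as terms described the split among unedited libraries. All 7 mitochondrial members were higher in the deeper libraries, by 1.04 (*mt-Nd5*) to 1.66 (*mt-Nd6*) on the log2 scale, where 0.45% of all 10674 genes were called higher. Because that split was noticed in these same genes, it is a description. Of the nuclear members 8 were lower in the deeper libraries and 0 higher, against 0.768% of all genes called lower, and 86 of 93 had a negative change, with a median of -0.19 where the median gene had 0.00. Of those called, *Ndufa13*, an accessory subunit of complex I, had the largest change, -0.44 ± 0.07 (SE, log2, adjusted p = 0.000524, edgeR). At an unadjusted p under 0.05 there were 49 of 93 nuclear members, against 1325 of all 10674 genes. The labels give no batch that would name this split, and its part in the dose results was not tested beyond the fits with depth as a term.

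Over the CHIR99021 doses, few nuclear members passed the test, at most 1 subunit of each complex in either direction. With dose as a linear term, edgeR called 4 of 93 nuclear members rising and 2 falling. That is 4.30% and 2.15%, near or below the shares of all 10033 genes tested, 5.89% rising and 6.65% falling. The median nuclear member had a slope of -0.002 per µM (log2), and that of all genes was 0.001.

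The rising members had 1 gene each from complexes I, III, IV and V. *Uqcrh*, the hinge subunit of complex III, had 160 and 169 CPM at 0 µM, 253 and 168 at 2.5 µM, 230 and 222 at 5 µM, 220 and 199 at 7.5 µM, and 291 and 244 at 10 µM. Both untreated libraries thus lay below all but 1 of the treated ones, and the slope was 0.054 ± 0.016 per µM (adjusted p = 0.0212, edgeR). That call was lost without 10 µM replicate 1, the shallowest library (adjusted p = 0.0601). *Ndufa10*, an accessory subunit of complex I, had 230 and 238 CPM at 0 µM and 274 to 356 in every treated library, with a slope of 0.052 ± 0.013 per µM (adjusted p = 0.00575). *Cox6b2*, the testis isoform of a complex IV subunit, had 158 and 150 CPM at 0 µM, 229 and 196 at 7.5 µM, and 167 and 229 at 10 µM. Its low values in treated cells were those of low-depth libraries, and the slope was 0.049 ± 0.014 per µM (adjusted p = 0.0198, edgeR). It was not called without 7.5 µM replicate 1 (adjusted p = 0.0669) or 10 µM replicate 2 (adjusted p = 0.106). The ubiquitous paralogue *Cox6b1* had 490 and 535 CPM at 0 µM and 594 and 587 at 10 µM, and its slope of 0.021 ± 0.011 per µM did not pass (adjusted p = 0.25). *Atp5mpl*, a small subunit of ATP synthase, had 305 and 318 CPM at 0 µM and 428 and 404 at 10 µM, with 0.036 ± 0.012 per µM (adjusted p = 0.0416). This call was lost without any 1 of the libraries at 0, 2.5 or 10 µM (adjusted p of 0.0516 to 0.198), with no filter on low counts (adjusted p = 0.0766) and in the deep libraries (adjusted p = 0.131).

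Among the falling members, *Sdhb*, the iron-sulphur subunit of complex II, had 230 and 264 CPM at 0 µM, 171 and 191 at 2.5 µM, 174 and 152 at 5 µM, 131 and 148 at 7.5 µM, and 163 and 174 at 10 µM. The untreated libraries were above all 8 treated ones, and the drop was there at the lowest dose, with a slope of -0.065 ± 0.015 per µM (adjusted p = 0.00416). The other subunits of complex II did not pass, with slopes of 0.003 for *Sdha*, -0.011 for *Sdhc* and 0.034 for *Sdhd*. *Ndufaf7*, a methyltransferase needed to assemble complex I, had 53.8 and 43.6 CPM at 0 µM, 25.4 and 35.7 at 7.5 µM, and 16.3 and 27.9 at 10 µM. Its slope was -0.084 ± 0.024 per µM (adjusted p = 0.0181, edgeR), and the call was lost without 7.5 µM replicate 1 (adjusted p = 0.0508).

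At 7.5 and 10 µM against 0 µM, in a fit with each dose as a level of its own, 3 nuclear members were higher and 4 lower, against 7.35% and 8.45% of all 10674 genes. *Uqcrh* was 1.43-fold, *Ndufa10* 1.41-fold and *Cox6b2* 1.37-fold higher. *Ndufaf7* was 1.76-fold and *Sdhb* 1.58-fold lower, and *Ndufa11*, an accessory subunit of complex I, and *Atp5a1*, the α subunit of ATP synthase, were 1.29-fold and 1.23-fold lower. These calls use the same libraries as the slopes and are not further support for them. Each rests on 2 untreated libraries. In edgeR, *Ndufa11* lost its call without 0 µM replicate 2 (adjusted p = 0.512), 7.5 µM replicate 1 or either 10 µM library. *Atp5a1* lost its call without either 0 µM library (adjusted p = 0.157 and 0.181), either 7.5 µM library or 10 µM replicate 2. *Cox6b2* did so without either 0 µM library, 7.5 µM replicate 1 or 10 µM replicate 2 (adjusted p of 0.0686 to 0.253). Without 0 µM replicate 1, *Uqcrh*, *Ndufa10* and *Ndufaf7* were not called either (adjusted p of 0.0787 to 0.237). DESeq2 did not call *Ndufa11* (adjusted p = 0.231), *Uqcrh*, *Cox6b2* or *Ndufaf7* (adjusted p of 0.0544 to 0.142). Without 0 µM replicate 1, 0 nuclear members rose and 1 fell with dose (*Sdhb*), against 252 and 275 of all 10190 genes. Without replicate 2, 1 rose (*Ndufa10*) and 1 fell (*Ndufaf7*), against 364 and 414 of 10248 genes. With all libraries 591 and 667 of 10033 genes did. ES cell markers moved with dose as well: 2 of 10 rose, *Klf4* and *Tfcp2l1*, and 6 fell, and their sum went from 5489 and 5509 CPM at 0 µM to 4318 to 4557 CPM at 7.5 and 10 µM. Mesendoderm markers summed to 16.3 and 19.1 CPM at 0 µM and 118 to 150 CPM at those doses. Neural markers summed to 57.1 and 63.8 CPM at 0 µM and 11.3 to 21.9 CPM at those doses, where both tested genes, *Pax6* and *Tubb3*, were lower. The part of these markers in the dose results was not tested.

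**Figure D2:**
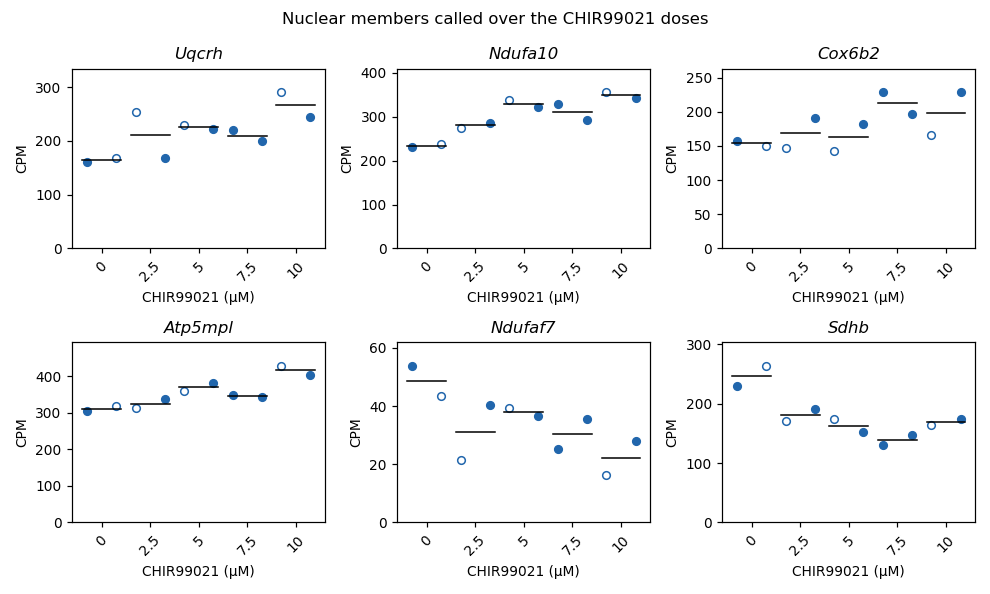
CPM of the 6 nuclear members called over the CHIR99021 doses, in unedited cells at each dose (µM). Points are libraries, open where they held under 1000000 counts, and lines are means of 2. *Sdhb* falls from 230 and 264 CPM at 0 µM to at most 191 in treated cells, and *Ndufa10* rises from 230 and 238 to at least 274.

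No mitochondrial member was called over the doses by edgeR (0 of 7) or DESeq2 (0 of 7). In edgeR 1 had an unadjusted p under 0.05 for the slope and 2 at the top doses. Of all genes, 2543 of 10033 and 2996 of 10674 did. *mt-Cytb*, the only mitochondrial subunit of complex III, had 1718 and 725 CPM at 0 µM and 741 and 2694 at 10 µM, so that replicates differed by more than the doses. Its slope was 0.073 ± 0.033 per µM (adjusted p = 0.153). With depth as a term, the slopes of *mt-Cytb* (0.041, adjusted p = 0.0168) and *mt-Co1* (-0.050, adjusted p = 0.0184) passed in opposite directions. In the 6 deeper libraries alone, *mt-Cytb* (0.063 per µM, adjusted p = 0.0041) and *mt-Nd4* (0.053 per µM, adjusted p = 0.00488) rose.

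Between clones, about 1 in 3 nuclear members was higher in strong than in weak ones. Of 93 nuclear members, edgeR called 31 higher and 1 lower in the 9 strong clones than in the 3 weak, 33.3% and 1.08%, where 12.7% and 17% of all 10452 genes were called. The median member was 0.20 higher (log2), against 0.00 for all genes, and 77 of 93 had a positive change. For 31 of 93 members the lowest strong clone lay above the highest weak one, which held for 9.33% of all genes. For 0 members did all strong clones lie below all weak ones, against 11.1% of all genes.

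By complex, 17 of 38 nuclear subunits of complex I were higher and 0 lower (median 0.26), 3 of 4 of complex II (0.43), 3 of 8 of complex III with 1 lower (0.18), 5 of 14 of complex IV (0.25) and 1 of 16 of complex V (0.08). Complexes were not tested against each other. Of the assembly or regulatory members, 2 of 13 were higher, *Ndufaf5* and *Ndufaf3*, both assembly factors of complex I. Against MES itself as a linear term over the 15 clones, which share these libraries, 31 nuclear members rose and 1 fell, where 9.38% and 13.4% of all 10145 genes did. Complexes I to V had 17, 2, 3, 7 and 1 subunits that rose, and *Uqcrh* of complex III fell.

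**Figure D3:**
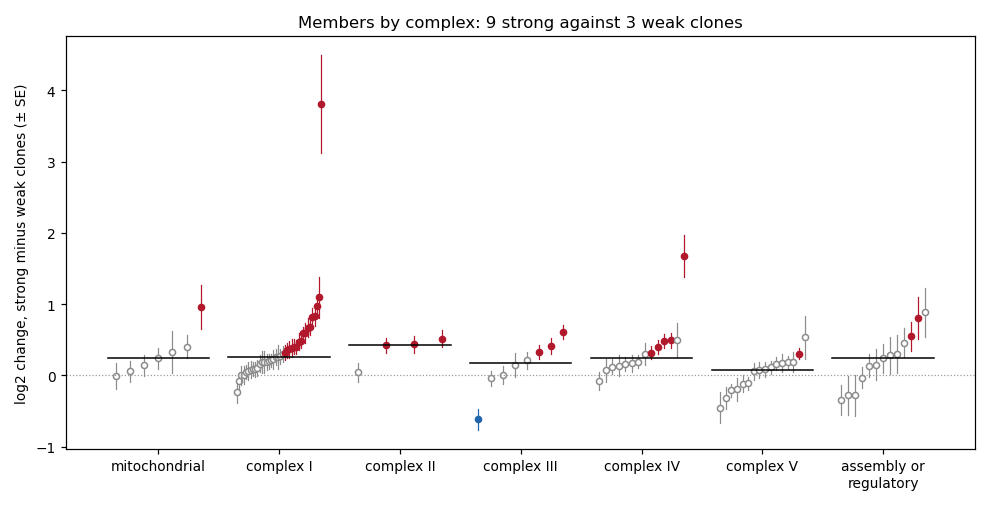
Log2 change of each of the 100 members between the 9 strong and the 3 weak clones, with its SE, by complex. Filled red points were called higher and the filled blue point lower (adjusted p under 0.05, edgeR), open points were not called, and lines are medians. In complex I 17 of 38 nuclear subunits are red, in complex V 1 of 16.

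The largest change was in *Ndufa4l2* (chromosome 10, 127514967 to 127517154), a paralogue of *Ndufa4* known as a gene induced in low oxygen. It had 1.51 CPM in S45C, 4.04 in T41N and 1.70 in T41S, which are 1, 2 and 3 counts. Medium clones had 6.42 to 8.79 CPM, and strong ones 5.43 to 52.0 with a median of 30.5. All weak clones lay below all strong ones, and the fitted change was 3.81 ± 0.69 (log2, adjusted p = 0.00022). That value depends on so few counts that its size is uncertain. *Ndufa4* itself differed by 0.01 ± 0.13 (adjusted p = 0.978), with 1053, 1257 and 1213 CPM in the weak clones and 1059 to 1524 in the strong.

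*Cox7a1*, the heart and muscle isoform of a complex IV subunit, had 16.6 (S45C), 12.1 (T41N) and 27.1 CPM (T41S) in weak clones, 18.3 to 28.2 in medium and 31.8 to 84.7 (median 69.2) in strong ones. Strong and weak did not overlap, with a 3.20-fold difference (1.68 ± 0.29 in log2, adjusted p = 0.000135). Its paralogues *Cox7a2* and *Cox7a2l* did not pass, at -0.08 ± 0.13 and 0.30 ± 0.15. The heart and muscle isoforms *Cox6a2* and *Cox8b* were at 0 counts in most libraries and stayed out of the members, as did *Cox8c*.

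In complex I, *Ndufb4*, an accessory subunit of the membrane arm on chromosome 16 (37647170 to 37654453), had 266 CPM in S45C, 210 in T41N and 176 in T41S. The medium clones had 299 to 315 and the strong 347 to 551 (median 406), so the 3 classes did not overlap, and strong clones were 1.97-fold higher (adjusted p = 1.62e-05). *Ndufb4c* on chromosome 15 was 2.14-fold higher (adjusted p = 0.00639). As 100% of its 50-base end words occur in transcripts of other genes, its level is uncertain. For *Ndufb4* 21.4% of the end words do. *Ndufv3*, an accessory subunit of the NADH-oxidizing module, had 190, 176 and 159 CPM in weak clones and 243 to 367 (median 317) in strong ones (1.78-fold, adjusted p = 9.18e-05). *Ndufb11*, an X-linked membrane arm subunit, had 110, 96.8 and 120 CPM in weak clones and 163 to 232 (median 189) in strong ones (1.76-fold, adjusted p = 5.55e-05). *Ndufa7* and *Ndufa6*, accessory subunits, were 1.60-fold and 1.59-fold higher. *Ndufc1*, a small subunit whose promoter stretch with the YY1 core is shown above, had 232, 214 and 233 CPM in weak clones and 265 to 334 in strong ones (1.32-fold, adjusted p = 0.00377).

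In complex II, *Sdha*, *Sdhb* and *Sdhc* were 1.34-fold, 1.43-fold and 1.35-fold higher in strong clones, while *Sdhd* had a change of 0.04 ± 0.13 (log2, 95% interval -0.22 to 0.30). *Sdhb* had 152 (S45C), 151 (T41N) and 138 CPM (T41S) in weak clones and 191 to 248 (median 201) in strong ones, with no overlap. It fell with CHIR99021 dose and rose with MES (0.23 ± 0.05 per 10000 units, adjusted p = 0.00447), and the difference between those slopes was not tested.

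In complex III, the core subunit *Uqcrc1*, whose promoter stretch is shown above, had 486, 438 and 447 CPM in weak clones, 535 to 639 in medium and 617 to 774 (median 708) in strong ones (1.53-fold, adjusted p = 4.03e-05). *Uqcrh* went the other way: 193 (S45C), 258 (T41N) and 229 CPM (T41S) in weak clones and 114 to 202 (median 141) in strong ones, 1.54-fold lower (adjusted p = 0.00271). S37F G1, the strong clone with the lowest depth, had 202 CPM and overlapped the weak clones. *Uqcrh* was the member that rose with dose, and it fell with MES (-0.24 ± 0.08 per 10000 units, adjusted p = 0.028), again without a test of the difference. That fall lost its call without T41S (adjusted p = 0.152), T41N, S45P, S37F H2 or T41I B9, and with depth as a term (-0.18, adjusted p = 0.0769).

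In complex IV, *Cox6a1*, *Cox8a*, *Cox5b* and *Cox5a* were 1.39-fold, 1.40-fold, 1.32-fold and 1.25-fold higher in strong clones. *Cox8a* had 371, 369 and 368 CPM in the weak clones (SD 1.69 CPM, n = 3) and 440 to 586 in the strong. The weak values rest on 246, 183 and 651 counts. An SD this small is below counting error and does not measure the spread between weak clones. In complex V, *Atp5b*, the catalytic β subunit, was the only subunit called: it had 1748, 1574 and 1613 CPM in weak clones and 1924 to 2172 in strong ones (1.23-fold, adjusted p = 0.0065). The 3 genes for the identical mature c subunit did not pass, *Atp5g1* at 0.18 ± 0.14, *Atp5g2* at 0.53 ± 0.30 and *Atp5g3* at -0.21 ± 0.09 (log2).

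**Figure D4:**
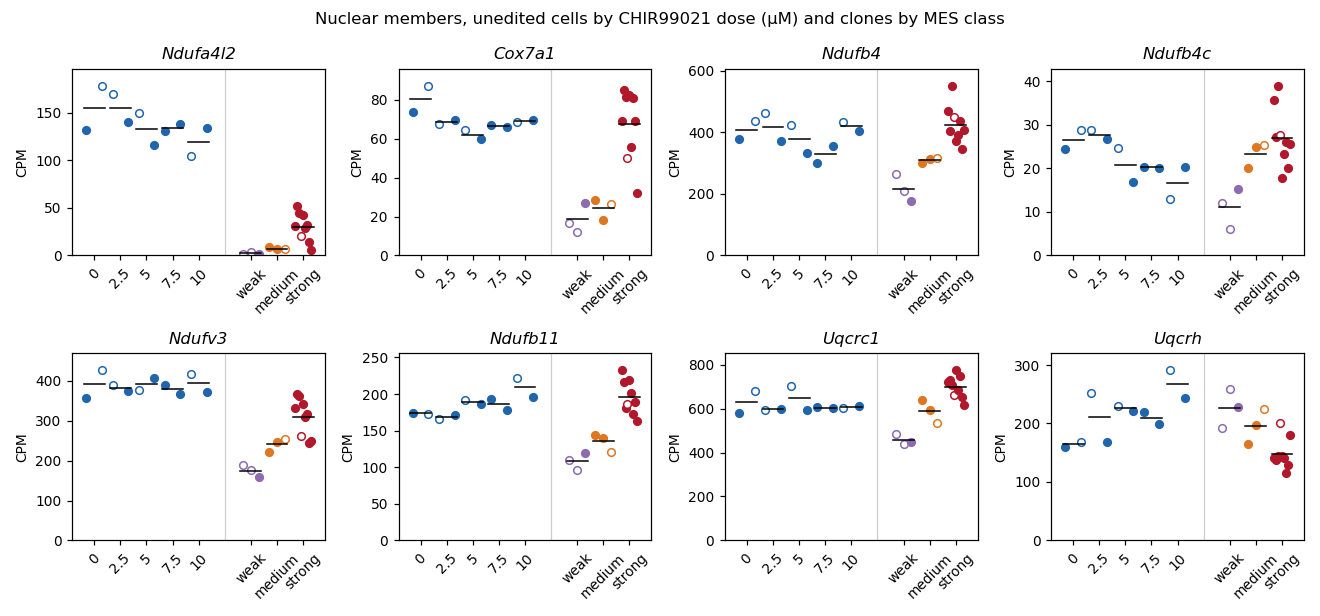
CPM of 8 nuclear members in every library, for unedited cells by CHIR99021 dose (µM) and for clones by MES class. Points are libraries, open where they held under 1000000 counts, and lines are group means. In all panels but that of *Uqcrh* the weak clones lie below the strong ones, and *Ndufa4l2* is lower in every clone (at most 52.0 CPM) than in every unedited library (at least 105 CPM).

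The weak group decides how far these counts go. The libraries over 1000000 counts leave T41S as the only weak clone. A fit there assumes that it varies like the others, so its count of called members is not given. Without T41N 25 nuclear members were higher, against 1099 of all 10686 genes. Without T41S 27 were, against 714 of 10563 genes. The fit with all clones had 31 members and 1326 of 10452 genes higher. ES cell markers moved along with the classes: 7 of 10 were higher in strong than in weak clones and 0 lower, led by *Tfcp2l1* (2.19 ± 0.18, log2) and *Klf4* (1.93 ± 0.18). Their summed level was 2391 to 3763 CPM in weak, 4995 to 6056 in medium and 5741 to 7102 in strong clones, and 4318 to 5509 in unedited cells, with no marker at 0 in any class. Of the fibroblast markers 1 of 5 was tested and lower, *Col1a1*, with 34.7 to 126 CPM in weak and 0.799 to 6.91 in strong clones, and the list summed to 52.8 to 167 CPM and 4.82 to 16.3. Of the neural markers both tested genes of 5 were lower, *Tubb3* (-1.39 ± 0.33) and *Pax6* (-1.83 ± 0.62), and the list summed to 76.7 to 142 CPM in weak and 16.4 to 82.2 in strong clones. The mesendoderm markers tested, *T* (0.13 ± 0.39) and *Eomes* (0.36 ± 0.36), did not pass, with sums of 18.2 to 71.7 and 27.1 to 93.1 CPM, and primitive endoderm markers 1 of 4, *Gata6*, with 21.1 to 46.9 and 6.21 to 247 CPM. The part of these markers in the nuclear result was not tested. In bulk RNA, fewer cells of a type and less RNA per cell cannot be told apart.

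Other mitochondrial gene groups were called at shares that mostly lay near or below those of all genes, 12.7% higher and 17% lower. Of 30 tested assembly factors outside the rule, 4 were higher and 0 lower (median -0.02), among them *Nubpl* (0.88 ± 0.17), which inserts iron-sulphur clusters into complex I, and *Uqcc2* (0.79 ± 0.14), needed for cytochrome b synthesis. Of 74 genes of the mitochondrial ribosome 11 were higher and 7 lower (median 0.11), with *Mrpl48* at 0.93 ± 0.23 and *Mrpl54* at -0.73 ± 0.15. Of 6 carriers and porins 0 were higher and 3 lower (median -0.23). *Slc25a4*, the ADP/ATP carrier of heart and muscle, led them with 743 to 970 CPM in weak and 326 to 417 in strong clones (-1.22 ± 0.11, adjusted p = 3.46e-08). Of 25 genes for expression and upkeep of mitochondrial DNA 2 were higher, while 17 had a positive change (median 0.21). The 2 called were *Grsf1* (0.66 ± 0.14), an RNA granule protein that binds mitochondrial transcripts, and *Ssbp1* (0.64 ± 0.23). Of 8 regulators of biogenesis 1 was higher, *Sirt3* (1.16 ± 0.28), while 7 had a positive change (median 0.23). Both medians lay near the 0.20 of the nuclear members. *Cycs*, the cytochrome c of somatic cells, had -0.02 ± 0.24 (adjusted p = 0.974, edgeR).

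With dose, few genes of these groups passed. *Grsf1* rose (0.13 ± 0.01 per µM, adjusted p = 6.32e-07) from 111 and 112 CPM at 0 µM to 236 to 249 at 7.5 and 10 µM. *Slc25a4* rose too (0.045 ± 0.013 per µM, adjusted p = 0.0226), while *Slc25a5*, the ubiquitous ADP/ATP carrier (-0.063 ± 0.013), and *Vdac1*, a porin of the outer membrane (-0.038 ± 0.011), fell. Of the 74 mitochondrial ribosome genes 1 rose and 4 fell.

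Of the 7 mitochondrial members 1, *mt-Nd6*, was called between strong and weak clones, and it was higher in strong ones. That is 14.3% of 7, near the 12.7% of all genes called higher, and so not a result about the members as a group. It is the 1 protein gene on the light strand, read in the direction opposite to the other 12. It had 7.54 CPM in S45C, 8.07 in T41N and 8.47 in T41S, 5.32 to 6.42 in medium clones and 9.21 to 22.3 (median 16.5) in strong ones, from 4 to 38 counts per clone. Strong and weak did not overlap, and the change was 0.96 ± 0.31 (log2, adjusted p = 0.0219). The call was lost without T41S (adjusted p = 0.101), without S45C (adjusted p = 0.0574) with depth as a term (adjusted p = 0.0837) and in the libraries over 1000000 counts (adjusted p = 0.0964). The other 6 had changes of -0.02 (*mt-Nd4*) to 0.40 (*mt-Co1*, adjusted p = 0.0705). *mt-Co1* passed without S45C (0.67, adjusted p = 0.00681) and in the libraries over 1000000 counts (0.88, adjusted p = 0.00671). It also passed without S37F H2, S45P or T41I A6 and with no filter on low counts, at 0.44 to 0.47. Against MES 0 of 7 were called by edgeR and by DESeq2. In edgeR 1 had an unadjusted p under 0.05, against 3567 of all 10145 genes.

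Set against the 2 untreated libraries, the 15 clones had 7 nuclear members higher and 14 lower, 7.53% and 15.1%, against 14.4% and 16.4% of all 11018 genes. Editing, cloning and library cannot be told apart here. The median nuclear change was 0.00 (log2). *Ndufa4l2* was lower in all 15 clones (1.51 to 52.0 CPM) than in all 10 unedited libraries (105 to 179 CPM), at -3.52 ± 0.32 (adjusted p = 1.22e-07). *Ndufa6* had 250 to 512 CPM in the clones and 547 to 624 in unedited cells (-0.69 ± 0.12, adjusted p = 0.00018). *Cox6b2*, *Cox7a2l* and *Atp5c1* also had every clone below every unedited library, which makes 5 of 93 nuclear members (5.38%) against 2.86% of all genes. Every clone lay above every unedited library for *Ndufa4*, *Ndufaf4* and *Uqcrq*, 3 of 93, against 4.17% of all genes.

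*Uqcrq*, a complex III subunit, had 262 to 382 CPM in the clones and 148 to 236 in unedited cells (0.54 ± 0.14, adjusted p = 0.00674). *Ndufaf4*, a complex I assembly factor, had 56.6 to 92.0 CPM against 30.2 to 51.9 (0.81 ± 0.18, adjusted p = 0.00159). *Atp5g1* had 395 to 752 CPM against 294 to 405 (0.64 ± 0.16, adjusted p = 0.00389), with T41S alone inside the unedited range. *Atp5g3* rose by 0.43 ± 0.11 as well, while *Atp5g2* had -0.48 ± 0.27 and did not pass, and reads of *Atp5g1* and *Atp5g2* share 36.0% and 55.5% of their end words with other transcripts. *Ndufaf7* (-1.06 ± 0.22), *Atp5s* (-1.04 ± 0.27), *Cox7a1* (-0.88 ± 0.23) and *Ndufaf6* (-0.68 ± 0.19) were lower. The calls of *Cox7a1* (adjusted p = 0.052 and 0.106) and *Ndufaf6* (adjusted p = 0.144 and 0.0661) were lost without 0 µM replicate 1 and without replicate 2. For *Cox7a1* the weak and medium clones had 12.1 to 28.2 CPM, and the strong ones, with a median of 69.2, overlapped the unedited range of 59.5 to 87.2. *Ndufaf7*, *Atp5s*, *Uqcrq*, *Ndufaf4*, *Atp5g1* and *Atp5g3* lost their calls without replicate 1 (adjusted p of 0.095 to 0.198). Without 0 µM replicate 1, 0 nuclear members were higher and 8 lower, against 530 and 670 of all 11485 genes. Without replicate 2, these were 5 and 6, against 688 and 1005 of all 11591 genes.

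The mitochondrial members did not all differ in the same direction between clones and untreated cells. In the clones 4 of 7 were higher, *mt-Nd4* (1.83 ± 0.28), *mt-Cytb* (1.72 ± 0.23), *mt-Nd1* (1.18 ± 0.24) and *mt-Nd2* (0.68 ± 0.23), and *mt-Nd6* was lower (-1.93 ± 0.25, adjusted p = 7.15e-06). *mt-Cytb* had 3023 to 5156 CPM in the clones and 725 to 2694 in unedited cells, and *mt-Nd4* 2298 to 5154 against 482 to 2203, neither with overlap. *mt-Nd6* had 5.32 to 22.3 CPM in the clones, and 59.2 and 24.5 at 0 µM, but 6.53 to 59.2 over the 10 unedited libraries. Untreated cells had 1 library on each side of the depth split: without replicate 2, the one of low depth, *mt-Nd1* (0.65, adjusted p = 0.0652) and *mt-Nd2* (0.15, adjusted p = 0.705) lost their calls and *mt-Co1* was called lower (-0.86, adjusted p = 0.00893). Without replicate 1 *mt-Nd6* lost its call (-1.11, adjusted p = 0.0596) and *mt-Co1* had 0.29 (adjusted p = 0.5).

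Ratios within a library do not depend on the size of the mitochondrial share. They were chosen after the values were seen and are given without a test. Per 100 counts of *mt-Nd1*, unedited libraries had 0.704 to 2.51 counts of *mt-Nd6* and clones 0.152 to 0.447, without overlap. *mt-Co1* had 8.45 to 16.7 and 3.57 to 6.56, and both were lower in the clones at either depth. The lowest unedited ratios of *mt-Nd6* rest on 2 counts (10 µM replicate 1) and 4 counts (5 µM replicate 1). Counting error there is wide, so its lack of overlap is uncertain at low depth. *mt-Nd2* had 88.2 to 108 and 62.6 to 90.2, where only T41S reached the unedited range. *mt-Cytb* had 65.8 to 92.3 and 78.0 to 132, and *mt-Nd4* 56.6 to 78.4 and 71.8 to 139, which overlapped. *mt-Nd5* had 4.96 to 9.91 and 3.83 to 9.83. The clones S37A A10 (427 CPM) and S45F D9 (409 CPM) stood apart in *mt-Nd5*, the other 13 having 134 to 225 CPM.

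**Figure D5:**
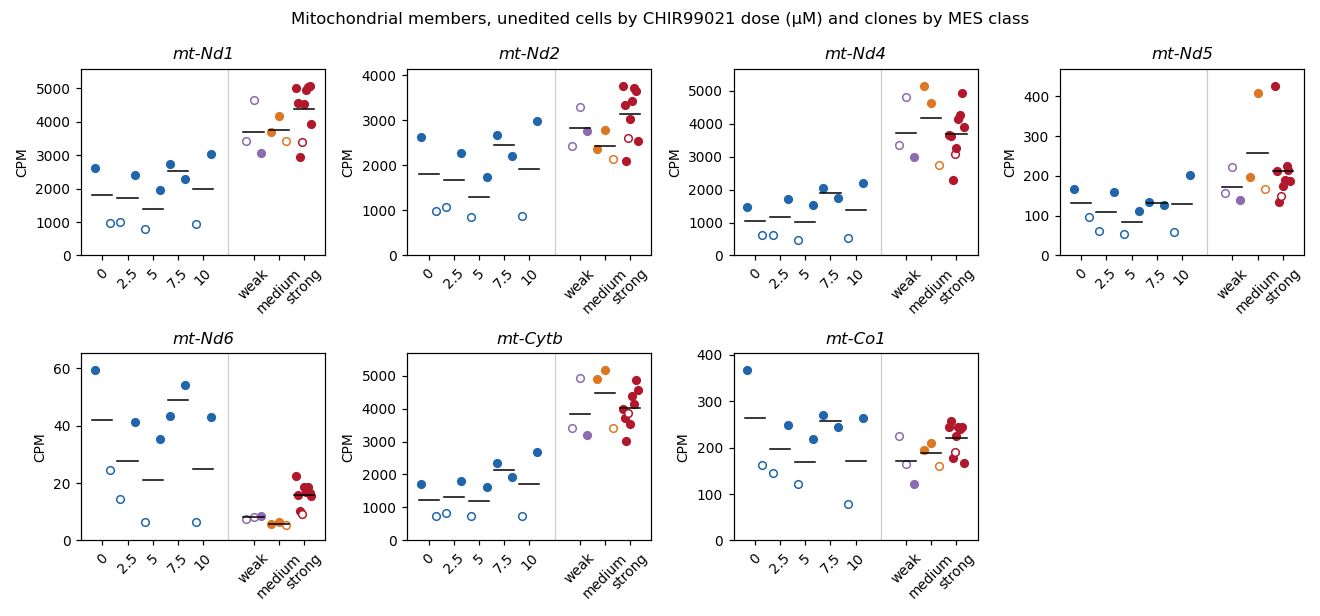
CPM of the 7 mitochondrial members in every library, for unedited cells by CHIR99021 dose (µM) and for clones by MES class. Points are libraries, open where they held under 1000000 counts, and lines are group means. *mt-Cytb* and *mt-Nd4* are higher in all 15 clones than in all 10 unedited libraries, while *mt-Nd6* does not exceed 22.3 CPM in any clone and reaches 59.2 in unedited cells.

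How closely clones of 1 mutation agreed was seen in the 4 mutations with a second clone. The median nuclear member had an SD of 0.13 (log2 of CPM + 1) within a mutation, 0.22 over the 15 clones and 0.15 over the 10 unedited libraries. For mitochondrial members these were 0.20, 0.30 and 0.75. The T41A clones were most alike, with a median difference of 0.07 over nuclear members, and the largest single differences were in *Atp5g2* between the S45F clones (1.78) and in *Ndufa4l2* between the T41I (1.20) and the S37F clones (1.08).

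Shifts of whole chromosomes touched some members. In S45F D9, the 320 genes on chromosome 6 lay 0.45 (log2) above the median clone, and the members there, *Ndufa4*, *Ndufa5*, *Ndufa9* and *Ndufb2*, lay 0.38 to 0.58 above it, with *Ndufa4* at 1804 CPM. In S45C D3, a weak clone, the 227 genes on chromosome 16 lay 0.37 above, with *Atp5j* at 0.34 and *Atp5o* at 0.25, while *Ndufb4* lay at -0.48. No other chromosome of a clone was shifted by over 0.16. Without S45C, 30 nuclear members were higher in strong clones, against 1267 of all 10729 genes.

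Across libraries, mitochondrial members varied together and nuclear ones loosely. The median Pearson r of log2(CPM + 1) between pairs of mitochondrial members was 0.67 over the 25 libraries, 0.57 over the clones and 0.92 over the unedited libraries, which differ in depth and mitochondrial share. Between pairs of nuclear members it was 0.18, 0.23 and 0.25. Pairs of a nuclear and a mitochondrial member had -0.01 over all libraries, 0.04 over the clones and -0.45 over the unedited libraries. These values share libraries and depth and are a description.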

How the data were processed

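RNA from bulk cultures was sequenced at transcript 3′ ends by mcSCRB-seq, which tags each molecule with a unique identifier. The table deposited by the authors holds raw counts of such molecules. Reads were trimmed, freed of ribosomal RNA, aligned to mm10 with RNA STAR, deduplicated (Picard, UMI-tools) and assigned to genes with featureCounts 2.0.1, without normalization. The annotation release, the strand setting and the handling of multiply mapping reads are not given in the sources used here. All 25 columns were used. CPM were computed from total counts, and symbols came from GENCODE M21 (48058 of 48440 IDs). Nuclear and mitochondrial members were treated apart.

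All tests were edgeR 4.0.16 quasi-likelihood F-tests on the whole table (TMM, filterByExpr with a minimum count of 10, Benjamini-Hochberg over all genes tested, threshold 0.05), with R 4.3.3. Predictors were dose in µM, dose as 5 levels (mean of 7.5 and 10 µM against 0 µM), MES per 10000 units, MES class, clones against untreated cells, and dose with depth (under or over 1000000 counts). The study's source data gave the MES of every mutation. Alternatives were RLE factors, DESeq2 1.42.0, no filter on low counts, mitochondrial counts left out of library sizes, a replicate block, depth as a term, ranks, counts summed per mutation, deep libraries only, and each library left out in turn. TMM factors lay between 0.969 and 1.03. Levels were recomputed with TMM-scaled sizes and with counts thinned to the smallest library. The steps were tested on simulated data.

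Named genes are all mitochondrial members, up to 6 nuclear members per direction and comparison by size of change among those called, isoform sets, the Sdh subunits, members at the CPM limit and list genes called. Others are examples chosen with their values known. The members, gene lists and comparisons were chosen with earlier results of these data known. Replicates of a dose are labelled by number only. Their deviations from the dose mean correlated between -0.13 and 0.12 over 10 pairs of doses, so the numbers were not taken to pair libraries. Nothing says that they are separate cultures, and p-values measure only the spread between these libraries. Replicates differed by more than counting noise (chi-square per degree of freedom of at least 1.36). Intervals and limits for 0 counts (3 counts) cover counting error only. The TCA cycle list is not reported here.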

Additional observations from a re-analysis of the deposited data

Results flagged for a closer look

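In the 9 strong clones, 31 items were looked at for a clone far from the others, and 4 had one (a gap over Dixon's 95% critical value, which chance gives in about 1 of 20 groups). *mt-Nd5* was 427 CPM in S37A clone A10, with the next clone at 225 CPM. *Ndufa4* was 1524 CPM in T41I clone A6, with the next at 1230. *Ndufa11* was 301 CPM in S37F clone G1, with the next at 262. *Atp5a1* was 1275 CPM in S37F clone H2, with the next at 1138. Each is 1 library, and no second library of these clones was analysed here.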

How the results depend on the processing

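The nuclear counts between strong and weak clones and against MES stayed within 1.5 times under every alternative but 1, the libraries over 1000000 counts, with 21 members called between the classes (20 higher). Leaving out 1 library gave 26 to 35 called members between the classes, 23 to 34 against MES, 8 to 22 for clones against untreated cells, 1 to 6 for dose and 3 to 8 for the top doses. With depth as a term 10 nuclear members were called for dose and 16 for the top doses, and DESeq2 called 3 for the top doses. The number of all genes called changed as well. Between the classes it was 1099 higher and 1552 lower of 10686 without T41N (26 members), and 1515 and 1752 of 10788 without S45P (35). Against MES 500 rose and 699 fell of 10222 without T41S (23 members), and 955 and 1249 of 10022 without T41A E6 (34). For the top doses it was 305 higher and 373 lower of 11156 without 0 µM replicate 1 (3 members). Without 2.5 µM replicate 2 it was 839 and 962 of 11203 (8 members). With depth as a term, 699 of 10674 genes rose and 820 fell with dose, and 1061 were higher and 1221 lower at the top doses. DESeq2 called 299 higher and 309 lower of 10674 at the top doses. For mitochondrial members leaving out 1 library gave 0 to 2 for dose, 0 to 4 for the top doses, 0 to 1 for MES, 0 to 2 between the classes and 4 to 5 for clones against untreated cells. With no filter on low counts there were 3 for dose, 4 for the top doses and 2 between the classes. With depth as a term there were 2, 3 and 0, and in deep libraries 2 for dose. The causes were not tested.

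With the replicate block, 5 nuclear members were called for dose, 6 for the top doses, 30 against MES and 35 between the classes. Of all genes, 538 rose and 602 fell of 10319 with dose, and 712 were higher and 839 lower of 10674 at the top doses. Against MES 929 rose and 1322 fell of 10145, and between the classes 1379 were higher and 1789 lower of 10836. The block took the calls of *Atp5mpl* for dose (0.036, adjusted p = 0.0546) and *Atp5a1* for the top doses (-0.30, adjusted p = 0.0527). Between the classes it called 2 mitochondrial members, *mt-Co1* (0.45, adjusted p = 0.0486) beside *mt-Nd6*. Numbers of clones name second clones of a mutation and pair nothing across mutations. A minimum of 5 or 20 CPM would give 102 or 95 members. Counts were low for *Ndufa4l2*, with 1 to 3 in the weak clones, and *mt-Nd6*, with 4 to 15, and depth limits what can be said of them.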
